A study of Mus musculus with 12 samples.

Results

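The 10 interleukin 1 family genes described here, of the 24132 gene symbols in the deposited table, were followed across 3 Hotair genotypes. They were taken by symbol: 6 receptor genes (Il1rl1, Il1rl2, Il1r1, Il1r2, Il18r1 and Il1rap) and 4 ligand genes (Il33, Il18, Il1a and Il1b). All 10 symbols had a row. Polyadenylated RNA had been sequenced from neonatal mouse tail tip fibroblasts, connective tissue cells grown from the tail, backcrossed to C57BL6. The cells were Hotair knockout, Hotair heterozygous or Hotair wild type, with 2 libraries each. Hotair is a long noncoding RNA of the HoxC cluster, and the series title asks about homeotic transformation and imprinted genes. The labels name no other allele, agent or treatment, and they leave unsaid if the 2 libraries of a genotype are different mice or cultures. The p-values below can only reflect how far these libraries scatter, and that scatter may be technical. The 6 ChIP-seq samples of the series are not analysed here.

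Interleukin 1 alpha and beta bind Il1r1, which then recruits the accessory chain Il1rap, while Il1r2 binds the same ligands as a decoy. Il33 binds Il1rl1, also called ST2, with the same accessory chain, and Il1rl2 is the receptor of the related interleukins encoded by the Il1f6, Il1f8 and Il1f9 genes. Il18 binds Il18r1 with the accessory chain Il18rap. These receptors signal through Myd88 and Irak kinases to NF-kB. Il1rl1 was described early as a growth-induced gene of mouse fibroblasts, and it encodes both a membrane receptor and a secreted form that binds Il33.

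Expression was taken in RPKM, aligned reads scaled by gene length and by library depth, so levels of different genes can be compared per length. Depth was between 27.9M and 48.1M read equivalents per library, with a ratio of 1.64 between knockout and wild-type means. Hotair stood at 0 RPKM in both knockout libraries, against 0.213 and 0.172 RPKM in heterozygous and 0.247 and 0.183 RPKM in wild-type libraries. Those heterozygous and wild-type values rest on 5.7 to 8.1 read equivalents each. Their 95% counting intervals overlapped, at 0.107 to 0.328 RPKM in heterozygous and 0.12 to 0.368 RPKM in wild type. All 10 fibroblast markers listed passed the filter used for testing (at least 1 RPKM in 2 libraries). Their summed level was 4256 and 4289 RPKM in knockout, 4659 and 4755 RPKM in heterozygous and 5103 and 5115 RPKM in wild-type libraries. Vim and Col1a1 were the largest parts of that sum, and single markers did not all follow it. Vim and Thy1 were highest in wild-type libraries, where Lum, Dcn and Pdgfra were lowest. Pdgfra, Col3a1 and Pdgfrb were highest in heterozygous libraries, and Fn1 was nearly level.

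Promoter sequences are shown for the receptor genes with the largest rises, Il1rl1 and Il1r1, and for ligand genes that were near 0, Il33 and Il1a. The 250 bases before each gene start are from RefSeq on GRCm38.p6, a later build than the mm9 of the expression values, and capitals mark matches to the motifs searched. Il1rl1 has a distal and a proximal start, both on the plus strand at chr1:40429320-40429569 and chr1:40439379-40439628, and in mouse fibroblasts the proximal one is known to be used. Il1r1 has windows at chr1:40224830-40225079 and chr1:40266336-40266585 on the plus strand. The Il33 window is the downstream one of its pair, at chr19:29945540-29945789 on the plus strand, and the Il1a window lies at chr2:129309973-129310222 on the minus strand.
Il1rl1 distal: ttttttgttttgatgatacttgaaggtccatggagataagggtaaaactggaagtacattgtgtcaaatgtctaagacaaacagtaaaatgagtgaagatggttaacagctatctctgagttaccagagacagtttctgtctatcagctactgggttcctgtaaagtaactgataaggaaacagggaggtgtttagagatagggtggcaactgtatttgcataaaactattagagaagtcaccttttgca
Il1rl1 proximal: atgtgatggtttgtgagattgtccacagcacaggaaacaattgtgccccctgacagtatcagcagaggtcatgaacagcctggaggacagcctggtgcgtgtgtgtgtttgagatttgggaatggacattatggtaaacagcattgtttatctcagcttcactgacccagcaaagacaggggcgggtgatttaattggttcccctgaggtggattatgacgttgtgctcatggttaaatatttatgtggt
Il1r1 upstream: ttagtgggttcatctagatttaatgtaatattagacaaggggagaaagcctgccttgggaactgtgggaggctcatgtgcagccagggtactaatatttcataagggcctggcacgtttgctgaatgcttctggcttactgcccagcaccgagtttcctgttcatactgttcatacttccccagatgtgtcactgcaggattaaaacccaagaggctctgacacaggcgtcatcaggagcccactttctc
Il1r1 downstream: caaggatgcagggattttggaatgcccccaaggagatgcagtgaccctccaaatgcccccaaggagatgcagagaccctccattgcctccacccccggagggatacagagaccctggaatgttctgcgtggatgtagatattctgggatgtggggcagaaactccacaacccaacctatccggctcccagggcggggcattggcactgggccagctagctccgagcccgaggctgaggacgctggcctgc
Il33 downstream: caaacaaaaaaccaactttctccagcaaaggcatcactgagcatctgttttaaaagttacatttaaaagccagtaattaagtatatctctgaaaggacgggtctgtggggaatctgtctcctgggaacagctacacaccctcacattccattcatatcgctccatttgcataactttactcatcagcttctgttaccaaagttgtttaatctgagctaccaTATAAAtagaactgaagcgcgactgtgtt
Il1a: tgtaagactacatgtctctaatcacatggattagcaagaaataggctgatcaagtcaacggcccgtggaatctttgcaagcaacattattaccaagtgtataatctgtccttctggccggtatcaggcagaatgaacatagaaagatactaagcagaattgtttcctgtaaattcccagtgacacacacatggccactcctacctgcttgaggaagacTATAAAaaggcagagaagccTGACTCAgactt

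The table of promoters held 15 windows for the 10 genes, each running from 250 bases before to 50 bases after a start. Both strands were searched for GGG, any 2 bases and then TTTCC (a form of the NF-kB site), TGANTCA (AP-1) and TATAAA, and no matches overlapped. The NF-kB letters were in 0 of the 15 windows and in 1.63% of all 32851 windows of the table. The AP-1 letters were in 1 window, that of Il1a, and in 7.81% of all windows. TATAAA was in 6 of the 15 and in 13.6% of all windows. It lay 29 bases before the downstream start of Il33, 32 before the start of Il1a and 31 before the start of Il1b. The other matches lay further out, 203 bases before the upstream start of Il33 and, on the opposite strand, 166 before the start of Il1rl2 and 175 before that of Il18. The windows of Il1rl1 and Il1r1 held none of the 3. A match is a run of letters, not a measured binding site.

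Il1rl1 was the most abundant member in all 6 libraries, and 4 of the 6 receptor genes stood above every ligand gene. Il1rl1 alone made up 85.9% and 85.2% of the summed RPKM of the 10 members in knockout libraries, 89.3% and 88.5% in heterozygous and 82.4% and 82.8% in wild-type libraries. It ranked between 495 and 543 of all 24132 symbols in knockout and heterozygous libraries, and at 1324 and 1290 in wild-type libraries. Il1r1 came next in every library, followed by Il1rl2 and Il1rap. Il1rl2 was above Il1rap in knockout and heterozygous libraries and below it in wild-type libraries, and the pair lay close except in heterozygous replicate 2. Il18 came next in all 6 libraries. These 5 genes were at 1 RPKM or more in every library, so none of them passed the filter only through a genotype in which it was high. The other 5 members (Il1r2, Il18r1, Il33, Il1a and Il1b) were under the filter and were not tested.

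**Figure D1:**
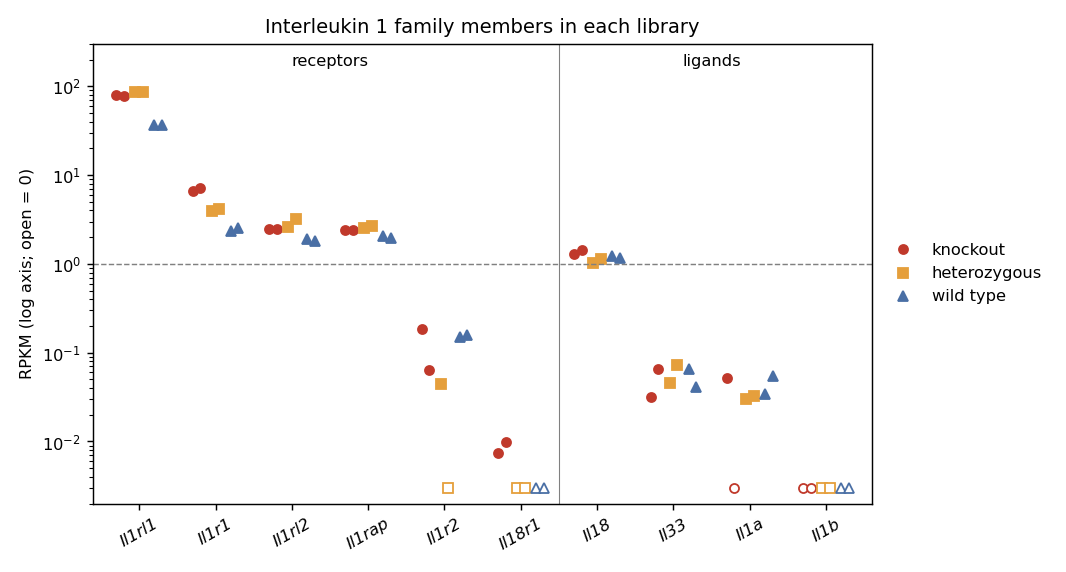
RPKM of the 10 members in each library on a log axis, with receptors on the left and ligands on the right; each point is a library, open points are values of 0 drawn at the bottom, and the dashed line marks 1 RPKM. Il1rl1 lies between 36.3 and 86.2 RPKM, and Il33, Il1a, Il1b, Il1r2 and Il18r1 lie below the line in every library.

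In knockout against wild-type cells, 4 of the 5 members tested rose, all of them receptors: Il1rl1, Il1r1, Il1rl2 and Il1rap. The remaining member, the ligand gene Il18, did not pass the test. Of all 10897 genes tested, limma called 67.2% in either direction and 40.6% higher in knockout, and 1.83% were called and at least 2-fold higher on the log2(RPKM + 1) scale, as Il1rl1 and Il1r1 were. No member was called lower (0 by limma, and 0 also at an unadjusted p under 0.05), where 26.6% of all genes were. Higher genes were 60.4% of all 7324 calls. That share was 46.7% with quantile normalization and 47.7% with median scaling. The median log2 difference of the 5 was 0.29, beside 0.06 over all genes tested. Knockout and heterozygous cells are each compared with the same 2 wild-type libraries, so those comparisons are not independent of each other.

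Il1rl1, the receptor for Il33, stood at 79.4 and 78.6 RPKM in knockout libraries, 85.4 and 86.2 RPKM in heterozygous libraries and 36.3 and 37 RPKM in wild-type libraries. The libraries of the 3 genotypes did not overlap, and heterozygous libraries were the highest. How many of all genes tested separate by genotype was not counted, so non-overlap here and below is description only. Means were 79 ± 0.569 RPKM in knockout, 85.8 ± 0.558 RPKM in heterozygous and 36.6 ± 0.501 RPKM in wild type (SD, n = 2 each). The RPKM ratio to wild type was 2.15 in knockout and 2.34 in heterozygous. On the log2(RPKM + 1) scale, the difference between knockout and wild type was 1.09 ± 0.02 (SE; limma, Benjamini-Hochberg adjusted p = 6.32e-08), the rank of 150 among rises of the 10897 genes. The log2 difference between heterozygous and wild type was 1.21 ± 0.02 (limma, adjusted p = 1.14e-07), at rank 41. Knockout lay below heterozygous by a small amount that also passed the test (log2 difference -0.12 ± 0.02, limma, adjusted p = 0.00364). The row rests on between 7198 and 26607 read equivalents per library. It has 1 value for the whole gene, so the membrane and secreted forms cannot be told apart.

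Il1r1, the signalling receptor for interleukin 1, stood at 6.57 and 7.13 RPKM in knockout, 3.92 and 4.12 RPKM in heterozygous and 2.34 and 2.51 RPKM in wild-type libraries. Knockout libraries were the highest and wild-type libraries the lowest, with heterozygous libraries between them and no overlap. Means were 6.85 ± 0.392 RPKM in knockout, 4.02 ± 0.139 RPKM in heterozygous and 2.42 ± 0.118 RPKM in wild type (SD, n = 2 each), which gives RPKM ratios to wild type of 2.83 in knockout and 1.66 in heterozygous. All 3 log2 differences passed the test: 1.20 ± 0.05 for knockout against wild type (limma, adjusted p = 2.12e-06), 0.55 ± 0.05 for heterozygous against wild type (adjusted p = 1.84e-04) and 0.64 ± 0.05 for knockout against heterozygous (adjusted p = 1.06e-04). With a pseudocount of 5 they were 0.67, 0.28 and 0.39, still called. Il1r1 thus differed between knockout and heterozygous cells upward, where Il1rl1 differed downward.

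Il1rl2, a receptor of the same gene cluster, stood at 2.5 and 2.47 RPKM in knockout, 2.63 and 3.2 RPKM in heterozygous and 1.88 and 1.8 RPKM in wild-type libraries. Wild-type libraries were the lowest without overlap, and the 2 heterozygous libraries lay further apart than those of the other genotypes. The log2 difference from wild type was 0.29 ± 0.07 in knockout (limma, adjusted p = 0.00848) and 0.46 ± 0.07 in heterozygous (adjusted p = 0.00174). After quantile normalization the knockout difference was 0.08 and no longer called (adjusted p = 0.348). Knockout and heterozygous libraries differed by -0.16 on the log2 scale (limma 95% interval -0.33 to 0.01, adjusted p = 0.097), a difference that was called without heterozygous replicate 1 (-0.27, adjusted p = 0.0132) and was -0.06 without heterozygous replicate 2 (adjusted p = 0.477).

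Il1rap, the accessory chain shared by the receptors for interleukin 1 and Il33, stood at 2.39 and 2.43 RPKM in knockout, 2.56 and 2.65 RPKM in heterozygous and 2.04 and 1.97 RPKM in wild-type libraries. The genotypes did not overlap, although the whole range was narrow. The log2 difference from wild type was 0.18 ± 0.05 in knockout (limma, adjusted p = 0.0102) and 0.26 ± 0.05 in heterozygous (adjusted p = 0.00299). The call in knockout was lost without knockout replicate 2 (0.17, adjusted p = 0.0612). After quantile normalization the knockout difference turned to -0.03 (adjusted p = 0.507) and the heterozygous one fell to 0.13 (adjusted p = 0.0556), so the direction of Il1rap in knockout depended on scaling. Knockout and heterozygous libraries differed by -0.08 (limma 95% interval -0.19 to 0.03, adjusted p = 0.19).

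**Figure D2:**
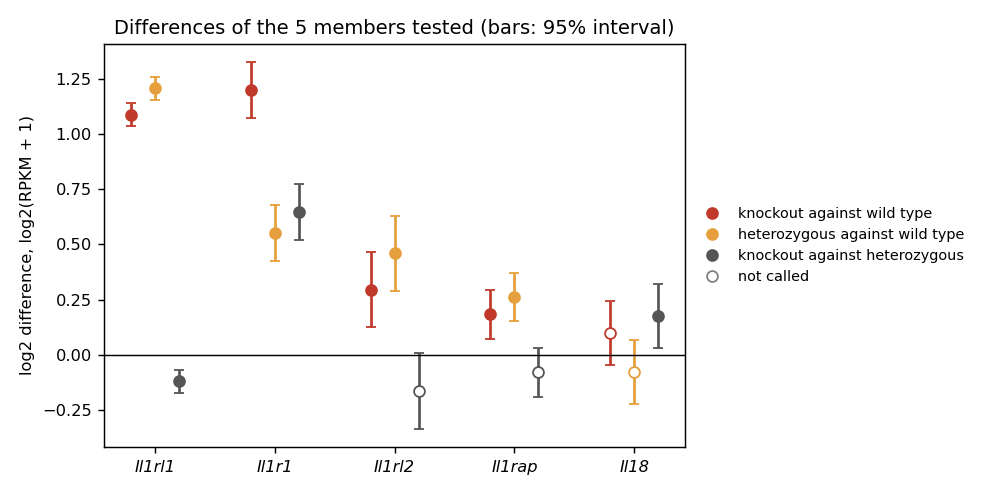
Log2 differences on the log2(RPKM + 1) scale of the 5 members tested, in the 3 comparisons; points are limma estimates, bars their 95% intervals, and open points did not pass the test. Il1rl1 and Il1r1 stand above 1 in knockout against wild type, and they lie on opposite sides of 0 in knockout against heterozygous.

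Heterozygous against wild-type cells gave the same count as knockout, with 4 of 5 members higher and none lower (0 by limma, and 0 at an unadjusted p under 0.05). Of all genes tested, 52.6% were called in either direction, 35.5% higher and 17.1% lower, and 0.771% were called and at least 2-fold higher, as was Il1rl1. The median log2 difference of the 5 was 0.46, beside 0.07 over all genes tested. Higher genes made up 67.5% of the 5729 calls over all genes. That share was 51.1% with quantile normalization and 46.5% with median scaling. In knockout against heterozygous cells, 2 members were called higher (Il1r1 and Il18), where 26.4% of all genes were. In that comparison 1 member was called lower (Il1rl1), where 25.4% of all genes were, and 51.8% were called in either direction.

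Among the ligands, Il18 was the only one above 1 RPKM. It stood at 1.28 and 1.43 RPKM in knockout, 1.01 and 1.15 RPKM in heterozygous and 1.22 and 1.17 RPKM in wild-type libraries. Each knockout library lay above the wild-type ones and each heterozygous library below them, by small steps. The log2 difference from wild type was 0.10 in knockout (limma 95% interval -0.04 to 0.24, adjusted p = 0.188) and -0.08 in heterozygous (interval -0.22 to 0.07, adjusted p = 0.32). The knockout value was 0.15 without knockout replicate 1 and 0.05 without knockout replicate 2, and the heterozygous value was -0.03 without heterozygous replicate 1 and -0.12 without heterozygous replicate 2. Knockout was higher than heterozygous by 0.18 ± 0.06 (limma, adjusted p = 0.0449), a call lost in 8 of 14 alternative fits, where adjusted p ranged from 0.0284 to 0.417. Those 8 included leaving out heterozygous replicate 1 (0.13), knockout replicate 1 (0.22), knockout replicate 2 (0.13) and either wild-type replicate (0.18 each). After quantile normalization the heterozygous difference was -0.20 and called (adjusted p = 0.0438), and the knockout difference turned to -0.13 (adjusted p = 0.112). The row rests on 14.3 to 28.7 read equivalents per library.

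Il33, the ligand of Il1rl1, stood at 0.0317 and 0.0663 RPKM in knockout, 0.0461 and 0.0734 RPKM in heterozygous and 0.0647 and 0.0412 RPKM in wild-type libraries, which is 1.5 to 4.0 read equivalents each. The genotypes overlapped. The exact Poisson 95% interval of the summed reads was 0.0179 to 0.106 RPKM in knockout, 0.0193 to 0.139 RPKM in heterozygous and 0.0145 to 0.136 RPKM in wild type. A difference between genotypes was not detectable at this depth. Intervals and floors here cover counting error only. They use the shortest gene length that makes the aligned bases whole. A longer one would narrow the intervals and lower the floors.

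Il1a, which encodes interleukin 1 alpha, had 5.0 and 0 read equivalents in knockout, 2.0 in each heterozygous library and 2.0 and 3.0 in wild-type libraries. Its levels were 0.0525 and 0 RPKM in knockout, 0.0304 and 0.0324 RPKM in heterozygous and 0.0341 and 0.0543 RPKM in wild-type libraries. The 2 knockout libraries spanned nearly the whole range, and a 0 in knockout replicate 2 allows up to 0.0329 RPKM (3 reads). Il1b, which encodes interleukin 1 beta, was at 0 in all 6 libraries, and no length for a floor could be recovered from such a row.

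The decoy receptor gene Il1r2 stood at 0.183 and 0.0643 RPKM in knockout, 0.0445 and 0 RPKM in heterozygous and 0.149 and 0.158 RPKM in wild-type libraries. This is 7.9 read equivalents over the knockout group, 1.0 over the heterozygous group and 6.0 over the wild-type group. The 95% intervals overlapped: 0.0543 to 0.248 RPKM in knockout, 5.82e-04 to 0.128 RPKM in heterozygous and 0.0567 to 0.336 RPKM in wild type. Il18r1, the ligand-binding receptor for Il18, had under 1 read equivalent in each knockout library (0.00739 and 0.00993 RPKM) and 0 in the other libraries. A 0 there allows up to 0.0484 and 0.0517 RPKM in heterozygous and 0.0544 and 0.0577 RPKM in wild-type libraries, above the knockout values, so a difference was not detectable.

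The 5 receptor genes Il1r2, Il1r1, Il1rl2, Il1rl1 and Il18r1 follow each other on chromosome 1, and their levels there ranged from near 0 to 86.2 RPKM. The 3 inner genes of this row (Il1r1, Il1rl2 and Il1rl1) were called higher against wild type in knockout and in heterozygous cells. The 2 outer ones (Il1r2 and Il18r1) were near 0. Of all genes tested, 40.6% were higher in knockout and 35.5% in heterozygous cells, and how many were higher in both was not counted. After quantile normalization the knockout call of Il1rl2 was lost (0.08). Of the 5 genes on each side, Il18rap, Map4k4 and Rnf149 passed the filter, and Creg2, Rfx8, Gm3646, Slc9a4, Slc9a2, Mfsd9 and Tmem182 stood below 1 RPKM in every library. Il18rap, the accessory chain of the Il18 receptor, follows Il18r1 directly. It stood at 2.34 and 2.38 RPKM in knockout, 2.16 and 2.33 RPKM in heterozygous and 1.7 and 1.91 RPKM in wild-type libraries, although the partner chain Il18r1 was near 0. Wild-type libraries of Il18rap were the lowest without overlap. Its log2 difference from wild type was 0.26 ± 0.06 in knockout (limma, adjusted p = 0.00496) and 0.21 ± 0.06 in heterozygous (adjusted p = 0.0181). The heterozygous call was lost without heterozygous replicate 2 (0.17, adjusted p = 0.0905), without wild-type replicate 1 (0.16, adjusted p = 0.0872) and, with both differences uncalled, after quantile normalization (0.05 in knockout and 0.08 in heterozygous).

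On the other side, the kinase gene Map4k4 stood at 27.6 and 28.3 RPKM in knockout, 27 and 27.5 RPKM in heterozygous and 26.9 RPKM in each wild-type library. The genotypes did not overlap, by small steps. Its log2 differences from wild type did not pass the test, at 0.05 in knockout (limma 95% interval -0.01 to 0.12) and 0.02 in heterozygous (-0.05 to 0.08). With median scaling they turned to -0.04 and -0.07, and with quantile normalization the knockout difference was called at 0.11 (adjusted p = 0.0105). Rnf149, a ubiquitin ligase gene further out, differed by 0.07 in knockout (-0.01 to 0.15) and by 0.15 in heterozygous, where it was called (limma, adjusted p = 0.00854). The heterozygous call was lost with median scaling (0.07) and quantile normalization (0.09), and median scaling turned the knockout difference to -0.01. Whether the rises inside the row differ from those of the genes around it was not tested.

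**Figure D3:**
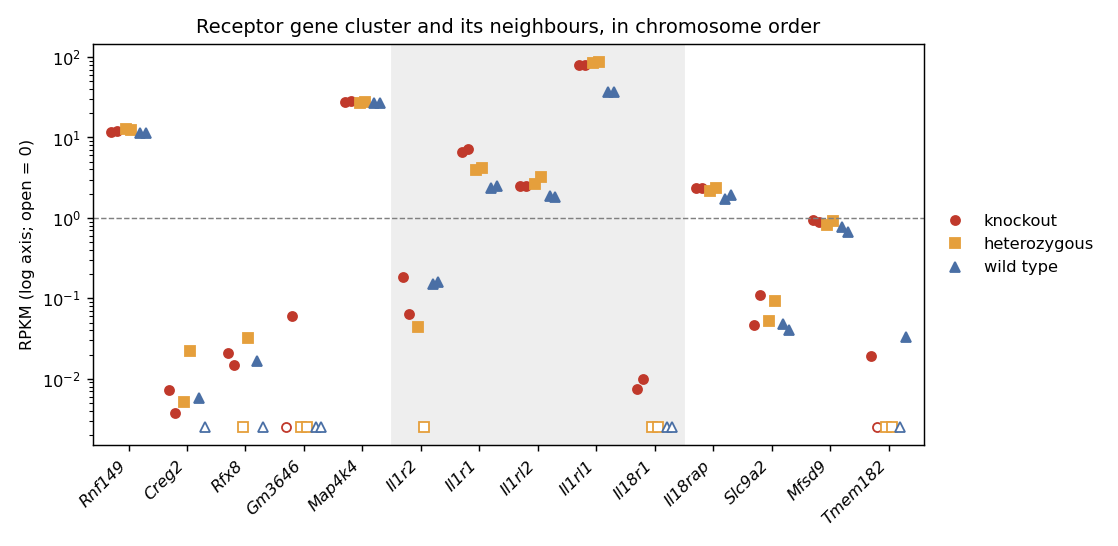
RPKM per library on a log axis for the receptor gene row (shaded) and its neighbours, in their order along chromosome 1 and not to distance; open points are values of 0, and Slc9a4, at 0 in all libraries, is left out. The 3 genotypes do not overlap at Il1r1, Il1rl2 and Il1rl1, nor at the neighbours Il18rap, Rnf149 and Map4k4. How many of all genes separate in this way was not counted. Map4k4, whose direction depended on scaling, spans 26.9 to 28.3 RPKM and Il1rl1 36.3 to 86.2 RPKM.

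Other family genes were mostly silent. Of 11 further family genes in the table, Il18rap alone passed the filter. Il1f5, Il1f6, Il1f8, Il1f9 and Il1f10 were at 0 in every library, which includes the ligands of Il1rl2. Il1rn, the secreted antagonist of Il1r1, stood at 0.379 and 0.31 RPKM in knockout, 0.0558 and 0.187 RPKM in heterozygous and 0.112 and 0.132 RPKM in wild-type libraries. Knockout libraries of Il1rn were the highest without overlap, under the filter and untested. Sigirr, an inhibitory receptor of the family, was at 0.12 RPKM or less.

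Of the 14 genes for inflammasome components and cytokine processing, 4 passed the filter, and Casp1, the protease that matures interleukin 1 beta and Il18, was at 0.07 RPKM or less. In knockout against wild type 1 of the 4 rose (Gsdmd, a pore-forming protein, by 0.24 ± 0.07 on the log2 scale, limma, adjusted p = 0.014). Another 2 fell: the calpain subunit genes Capn1 (-0.21 ± 0.05, adjusted p = 0.00756) and Capn2 (-0.37 ± 0.02, adjusted p = 3.85e-06). The call of Gsdmd was lost without knockout replicate 1 (0.16, adjusted p = 0.0925) and without wild-type replicate 2 (0.17, adjusted p = 0.0801). With quantile normalization the calls of Gsdmd (0.17, adjusted p = 0.0602) and Capn1 (-0.15, adjusted p = 0.0507) were lost. Calpain cleaves the precursor of interleukin 1 alpha. The median of the 4 was -0.05, beside 40.6% higher, 26.6% lower and a median of 0.06 over all genes. In heterozygous against wild type 0 of the 4 rose by limma (0 also at an unadjusted p under 0.05), and Capn1, Capn2 and Casp8 fell, with log2 differences of -0.46, -0.14 and -0.16, beside 35.5% higher and 17.1% lower over all genes. Casp8, a caspase that can also process interleukin 1 beta, lost that call without any library other than wild-type replicate 1, with differences of -0.09 to -0.17. Capn2 lost it after quantile normalization (-0.04, adjusted p = 0.0736).

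Receptor signalling genes moved in both directions. In knockout against wild type 13 of 31 were called higher and 8 lower by limma, with a median log2 difference of 0.02, beside 40.6% higher, 26.6% lower and a median of 0.06 over all genes. Tab2, an adaptor of the kinase Map3k7, stood at 17.5 and 18.4 RPKM in knockout, 15.3 RPKM in each heterozygous library and 13.1 and 13.9 RPKM in wild-type libraries. Its log2 difference in knockout was 0.38 ± 0.04 (limma, adjusted p = 1.19e-04). Nfkbiz, an NF-kB cofactor induced by interleukin 1, rose by 0.41 ± 0.05 in knockout (adjusted p = 2.83e-04) and by 0.49 ± 0.05 in heterozygous (adjusted p = 2.48e-04). The receptor-proximal kinase gene Irak2 fell in knockout (-0.46 ± 0.04, adjusted p = 2.39e-05), and so did Tollip, an adaptor that restrains Irak signalling (-0.42 ± 0.03, adjusted p = 1.72e-05). In heterozygous against wild type 11 of 31 were higher and 4 lower, beside 35.5% and 17.1% of all genes, a share of higher genes no larger than the background. The balance depended on scaling: quantile normalization gave 6 higher and 12 lower in knockout and 5 higher and 5 lower in heterozygous, and median scaling gave 9 higher and 11 lower in knockout and 5 higher and 7 lower in heterozygous. The counts include Irak3, which reached the filter only through knockout libraries (1.02 and 1.04 RPKM), and Peli2, which reached it only in knockout and heterozygous libraries. Without knockout replicate 1 the lower count in knockout was 5. In heterozygous cells the higher count was 7 without heterozygous replicate 1, and the lower count was 2 without heterozygous replicate 2 and 2 without wild-type replicate 2. In knockout against heterozygous 3 were higher and 5 lower, beside 26.4% and 25.4% of all genes, and the higher count was 1 without knockout replicate 2 and 5 without either wild-type replicate.

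Of 26 genes that interleukin 1 is known to induce in fibroblasts, 14 passed the filter. In knockout against wild type 10 of the 14 were called higher and 2 lower by limma, with a median log2 difference of 0.22. In heterozygous against wild type 11 were higher and none lower (0 by limma, and 0 at an unadjusted p under 0.05), with a median of 0.35. Over all genes tested, 40.6% were higher and 26.6% lower in knockout, with a median of 0.06. In heterozygous cells the shares were 35.5% and 17.1%, with a median of 0.07. The list was chosen with earlier results of these data known. Cxcl5, a neutrophil chemokine, stood at 14.9 and 14.3 RPKM in knockout, 13.9 and 13.8 RPKM in heterozygous and 3.94 and 3.55 RPKM in wild-type libraries. Like Il1rl1, it was high in both mutant genotypes, with log2 differences from wild type of 1.72 ± 0.05 and 1.65 ± 0.05. Mmp13, a collagenase, stood at 20.4 and 19.2 RPKM in knockout, 25.5 and 25.9 RPKM in heterozygous and 9.36 and 10 RPKM in wild-type libraries. Mmp3, the metalloproteinase stromelysin, rose by 0.73 ± 0.06 in knockout and 0.25 ± 0.06 in heterozygous on the log2 scale. Its heterozygous call was lost without heterozygous replicate 1 (0.19, adjusted p = 0.0697) and without wild-type replicate 1 (0.17, adjusted p = 0.0638). Il11, a cytokine of the interleukin 6 family, fell in knockout (-0.51 ± 0.04) and rose in heterozygous cells (0.48 ± 0.04). Il6 itself, a classical target, was at 0.176 RPKM or less in every library. In knockout against heterozygous 4 of the 14 were higher and 7 lower, beside 26.4% and 25.4% of all genes. The counts include the adhesion molecule gene Icam1, which reached the filter only through knockout libraries (1.58 and 1.94 RPKM).

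**Figure D4:**
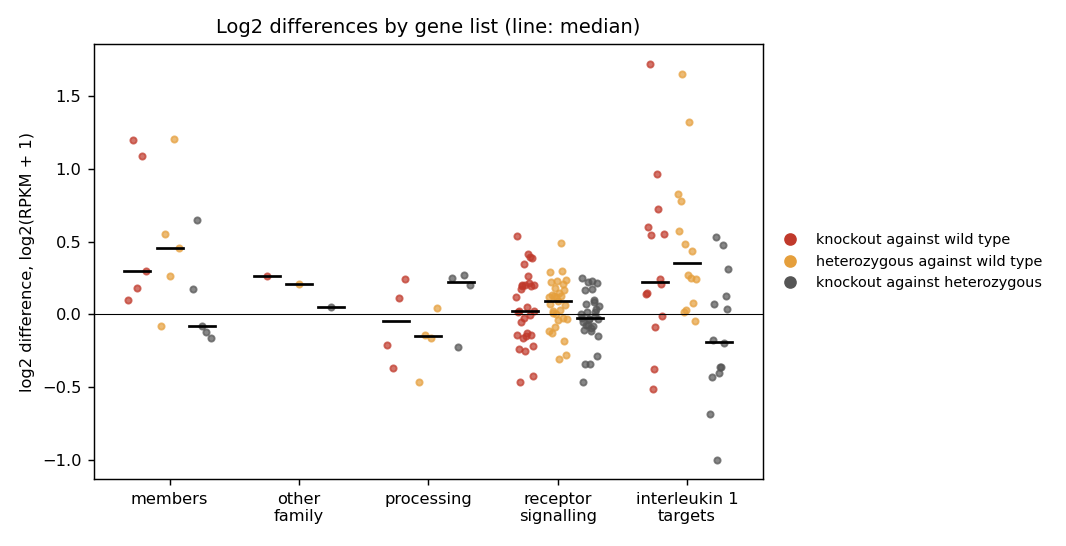
Log2 differences on the log2(RPKM + 1) scale of all genes past the filter in each list, for the 3 comparisons; each point is a gene and black lines are medians. Target genes have medians of 0.22 in knockout and 0.35 in heterozygous against wild type, beside 0.06 and 0.07 over all genes tested. Signalling genes lie around 0 in each comparison.

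The genes whose profile over the 6 libraries lay closest to that of Il1rl1 were Cebpb, Trnp1 and Id2, with distances of 0.0974, 0.12 and 0.129 between centred log2(RPKM + 1) profiles. Cebpb, which encodes a transcription factor, stood at 21.4 and 21.8 RPKM in knockout, 22.8 and 23.1 RPKM in heterozygous and 9.66 and 9.03 RPKM in wild-type libraries. Closest to Il1r1 were Erbb2ip, Adam8 and Dnm1 (0.109, 0.123 and 0.132). Adam8, a membrane metalloproteinase, stood at 26.5 and 27 RPKM in knockout, 15.8 and 15.5 RPKM in heterozygous and 10.6 and 10.9 RPKM in wild-type libraries. Closest to Il1rl2 was Cdon (0.0807). For Il1rap they were March5, Tmem150a and Inpp5k (0.0429, 0.0436 and 0.0443), and for Il18 Iqsec2, Nelfa and Rrp15 (0.0401, 0.0403 and 0.0455). Genes of small change lie close to many others on this measure.

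Several of these receptors are also made by other cell types of skin and blood, so marker lists were set beside them. In bulk RNA, more cells of a type and more RNA per cell cannot be told apart. The 14 macrophage and leukocyte markers summed to 55.7 and 56.2 RPKM in knockout, 8.54 and 7.7 RPKM in heterozygous and 10.6 and 9.17 RPKM in wild-type libraries. Their sum was high in knockout libraries, as Il1r1 and Il1rn were. In heterozygous libraries the sum was below wild type. There Il1rl1 was highest, Il1r1 was above wild type and Il1rn overlapped it. Single markers differed in direction in heterozygous against wild type. Lyz2 was lower (log2 difference -0.89, limma, adjusted p = 1.82e-05). Cd68 (0.38, adjusted p = 0.00303) and Csf1r (0.20, adjusted p = 0.047) were higher, and Cd14, Tyrobp, Laptm5 and Fcer1g were not called. Csf1r, Tyrobp and Fcer1g reached the filter only through knockout libraries. The part of these markers in the differences of Il1r1, Il1rn and Il1rl1 was not tested. The 8 osteoclast markers in the table summed to 55.5 and 55.2 RPKM in knockout, 20.2 and 22.7 RPKM in heterozygous and 32.1 and 32.5 RPKM in wild-type libraries. They did not move together. In knockout against wild type Acp5 (log2 difference 3.86), Mmp9 (2.29) and Atp6v0d2 (1.32) were called higher, and Ctsk (-0.75) and Itgb3 (-0.98) lower. In heterozygous against wild type Mmp9 (-0.91), Itgb3 (-0.72) and Ctsk (-0.41) were called lower. Acp5 and Atp6v0d2 reached the filter only through knockout libraries. Mast cells are known for high Il1rl1. The 8 mast cell markers summed to 0.75 and 0.829 RPKM in knockout, 1.67 and 1.57 RPKM in heterozygous and 1.15 and 0.708 RPKM in wild-type libraries. Cpa3, Tpsb2 and Fcer1a were at 0 in all 6 libraries. The mast cell protease gene Mcpt4 stood at 0.428 and 0.492 RPKM in knockout, 1.11 and 1.01 RPKM in heterozygous and 0.798 and 0.354 RPKM in wild-type libraries. The related gene Cma1 stood at 0.285 and 0.337 RPKM in knockout, 0.548 and 0.525 RPKM in heterozygous and 0.34 and 0.327 RPKM in wild-type libraries. Both were highest in heterozygous libraries, as Il1rl1 was. In knockout libraries, where Il1rl1 was also above wild type, both genes overlapped the wild-type libraries. Mcpt4 reached the filter only through heterozygous libraries. The part of both genes in the differences of Il1rl1 was not tested.

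The 11 keratinocyte markers summed to 6.67 and 6.51 RPKM in knockout, 5.94 and 5.88 RPKM in heterozygous and 4.71 and 5.16 RPKM in wild-type libraries, in the same order of genotypes as Il1r1. Perp and Sfn made up most of that sum. Sfn stood at 1.95 and 1.64 RPKM in knockout, 1.24 and 1.43 RPKM in heterozygous and 0.352 and 0.22 RPKM in wild-type libraries, and Perp was also lowest in wild type, at 2.84 and 3.11 RPKM. Ivl went the other way, with 0.182 and 0.19 RPKM in knockout, 0.0156 and 0.0167 RPKM in heterozygous and 0.863 and 1.03 RPKM in wild-type libraries. The basal keratins Krt5 and Krt14 were at 0.24 RPKM or less. The part of these markers in the differences was not tested. The 6 Schwann cell markers summed to 14.8 and 15.4 RPKM in knockout, 32.8 and 31.9 RPKM in heterozygous and 26.4 RPKM in each wild-type library. The 7 endothelial markers summed to 0.255 RPKM or less in any library, and the 8 T and natural killer cell markers to 0.0272 RPKM or less, with Cd3e, Cd3d, Cd3g and Ncr1 at 0 throughout.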

How the data were processed

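The submitters' processing notes name TopHat and the mm9 build. The authors deposited 1 value per symbol and library; per the file headers these derive from coverage tracks, and the unit is not stated. The deposited values were taken as RPKM because low values are whole multiples of a step per library, and this gave depths for reads of 74 bases. Read equivalents rest on the shortest gene length that fits (tolerance 0.002 bases). The labels name a dUTP library protocol, which keeps strand information. For the use of strand in counting and the annotation version, the sources used here give nothing.

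Genes reaching 1 RPKM in 2 or more libraries (10897) were fitted as log2(RPKM + 1) with limma 3.58.1 in R 4.3.3. The model had 3 genotype means and 3 residual degrees of freedom, with trended empirical Bayes variances. Tests were two-sided, with Benjamini-Hochberg adjustment over all genes and a threshold of 0.05. This scale understates changes of low genes. An exact permutation of 2 against 2 libraries cannot go below p = 0.333. The fit was tested on simulated counts with small added scatter. That does not show how the p-values behave under variation between mice or cultures. Members, gene lists and markers were chosen with earlier results of these data known. Named were all members, up to 4 genes per list (smallest p, knockout over wild type), list genes at 2-fold, 5 neighbours on each side of the receptor genes and the 3 closest profiles per member, of which 2 for Il1rl2 are not reported here. Il1rn, Sigirr, Casp1, Il6, Irak3, Peli2, Icam1, the single markers not at 0 throughout and the silent family ligands were named after their values were seen. A value of 0 was given a floor of 3 reads. Alternatives changed the pseudocount, filter, scaling, trend, groups fitted and replicate block, or left out each library in turn.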

Additional observations from a re-analysis of the deposited data

How the results depend on the processing

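Under 15 alternatives, the differences of Il1rl1 and Il1r1 kept their direction and their call in all 3 comparisons. Il1rl1 ranged from 1.0 to 1.15 in knockout against wild type, 1.12 to 1.23 in heterozygous against wild type and -0.13 to -0.08 in knockout against heterozygous. Over all members 199 of 216 recomputed differences kept direction and call.

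The number of members called depended on filter and scaling. With a filter at 5 RPKM, 2 members were tested and higher in knockout and 2 in heterozygous against wild type (4 each as reported), and 1 was higher in knockout against heterozygous (2 as reported). After quantile normalization 2 members were higher in knockout against wild type, 1 was lower in heterozygous against wild type (0 as reported), and 1 was higher and 3 lower in knockout against heterozygous (1 lower as reported). In that last comparison 1 member was higher in the fit of 2 groups alone and with no filter on low values. Leaving out single libraries gave 3 to 4 members higher in knockout against wild type, 1 to 2 higher in knockout against heterozygous and 1 to 2 lower there. The cause was not tested.

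Directions that reversed were all of differences under 0.2 in size. After quantile normalization Il1rap (-0.03) and Il18 (-0.13) turned in knockout against wild type, Gsdmd (-0.03) in heterozygous against wild type and Il18rap (-0.03) in knockout against heterozygous. After median scaling Rnf149 (-0.01) and Map4k4 (-0.04) turned in knockout against wild type, and Map4k4 (-0.07) and Gsdmd (-0.03) in heterozygous against wild type. Gsdmd in that comparison ranged from -0.03 to 0.11 when single libraries were left out. Over all genes, calls higher were 2291 with a filter at 5 RPKM (4421 as reported) in knockout against wild type, 2280, 2518 and 2397 with that filter, median scaling and quantile normalization (3865) in heterozygous against wild type, and 1611 with that filter (2880) in knockout against heterozygous. Calls lower in heterozygous against wild type were 2902 after median scaling (1864). The filter at 5 RPKM left 6788 genes to test in place of 10897, so its counts are out of fewer genes.

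List counts moved too, and the filter at 5 RPKM also left fewer signalling and target genes to test. In knockout against wild type, other family genes higher were 2 with no filter and 0 with quantile normalization (1 as reported), processing genes higher 3 with no filter and 0 with either scaling or without knockout replicate 1 (1), processing genes lower 1 with quantile normalization (2), signalling genes higher 4 with the filter at 5 RPKM and 6 with quantile normalization (13), and target genes lower 1 with that filter (2). In heterozygous against wild type, other family genes higher were 0 with no filter or either scaling (1), processing genes higher 1 with no filter (0), and signalling genes higher 7 with the filter at 5 RPKM and 5 with either scaling (11), and lower 7 with median scaling (4). In knockout against heterozygous, other family genes higher were 1 with no filter (0), processing genes lower 2 with no filter (1), signalling genes higher 5 with 2 groups alone (3), and target genes higher 8 with no filter (4).

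No pairing of the libraries by replicate number was detected. Deviations of same-numbered libraries correlated at 0.065 between knockout and heterozygous, -0.062 between knockout and wild type and -0.088 between heterozygous and wild type. Such correlations cannot show that same-numbered libraries share no origin. With the replicate block 4 members were higher in knockout against wild type, 4 in heterozygous against wild type and 2 in knockout against heterozygous, as without it. Depth limits Il33, Il1a, Il1r2, Il18r1 and Hotair, where a few reads carry each value.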
